A study of Mus musculus with 22 samples.

Results

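The measurements are those of large Pre-B cells in which the RNA-binding protein LIN28B was switched on, set against large Pre-B cells of littermates without it. The comparison rests on 7 of the 22 libraries of the series, 3 from control and 4 from tet-LIN28B mice, chosen as all libraries labelled large Pre-B, and on every gene of their table. That table lists 37851 genes, of which 34144 were above 0 in at least 1 library, and 14155 reached a normalized count of 10 in at least 3 libraries and were tested. A normalized count is the number of reads on a gene divided by a size factor for the library, and all values below are in this unit unless another is named. The tet-LIN28B mice (Col1a tetO-LIN28B, Rosa26 rtTA*m2) carried 1 allele of a transgene from which doxycycline (Dox) induces a Flag-tagged human Lin28b cDNA. Control mice carried Rosa26 rtTA*m2 alone, so the transactivator was present in both genotypes. All mice were adults of 10 to 16 weeks, of both sexes, and all received Dox chow (200 mg/kg) for 10 days, the controls included. Because rtTA is driven from the Rosa26 locus, induction was not limited to B cells. Cells were sorted from bone marrow as CD93+ IgM- cKIT- B lineage cells with high forward scatter after depletion of CD3+, TER119+ and GR1+ cells.

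Large Pre-B cells are the dividing precursors that follow a productive rearrangement of the immunoglobulin heavy chain, when that chain pairs with the surrogate light chain in the pre-B cell receptor. LIN28B is normally made in fetal and neonatal progenitors and is lost in adults. It binds precursors of the let-7 microRNAs and blocks their maturation, which relieves the mRNAs that let-7 represses, and it also binds many mRNAs directly.

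The libraries held 19864000 to 30437872 reads. All 12 B lineage markers were expressed, among them the surrogate light chain genes Igll1 at 4003 to 7722 and Vpreb1 at 1141 to 2161, and Kit, on which the cells were sorted as negative, was at 9.92 to 51.9. Of 14 T cell markers, the CD3 chains Cd3d, Cd3e and Cd3g were at most 13.8, 6.4 and 7.04, while Lck (2216 to 3633) and Cd2 (252 to 742) were expressed in all libraries. Control 3 stood apart. Its correlation with the other libraries was 0.903 to 0.938 on the log2 scale, it lay at one end of the first principal component (39.9% of the variance), and it had 28434 genes above 0 against 20936 to 26211 in the others. Myeloid transcripts were highest in control 2. The summed level of 14 neutrophil markers was 1610 in control 2, 12 and 96.7 in the other controls and 4.03 to 59.3 in tet-LIN28B libraries, and that of 14 monocyte and macrophage markers was 423, 5694 and 1126 in controls 1 to 3 and 318 to 393 in tet-LIN28B libraries, mostly Lyz2 in controls 2 and 3. The summed level of 12 plasma cell markers was 19139, 55439 and 24460 in controls 1 to 3 and 19912 to 36918 in tet-LIN28B libraries. Several list counts are therefore also given without control 2 or without control 3, a choice made after the data were seen.

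Lin28b was read first, as a check of the genotypes (chromosome 10, 45376620 to 45486395 in GRCm38). It stood at 9.92, 16.1 and 28.8 in the controls and at 41.9, 61.6, 175 and 63.3 in tet-LIN28B libraries. Every tet-LIN28B library was above every control, and tet-LIN28B library 3 was highest. The log2 fold change was 2.07 ± 0.56 (SE), which limma did not call over all genes (Benjamini-Hochberg adjusted p = 0.452). Since the induced cDNA is human, this value holds reads of the mouse gene plus any transgene reads that align to it, and it is no measure of LIN28B protein.

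Between genotypes, 6 genes rose (0.0424% of the 14155 tested) and 2 fell (0.0141%) by limma on log2(normalized count + 1), at a Benjamini-Hochberg adjusted p under 0.05, so 8 in all (0.0565%). The 6 that rose were the chromatin factors Arid3a and Arid3b, the Schlafen gene Slfn8, the fatty acid and scavenger receptor Cd36, the HSP70 family member Hspa12b and 9930111J21Rik2. The 2 that fell were Spp1, which encodes the secreted integrin ligand osteopontin, and Arl5a, a small GTPase of the ARF-like family. In all 8 the genotypes did not overlap, so leaving out 1 library could not change their sign. In 508 genes every tet-LIN28B library lay above every control (3.59%) and in 406 below (2.87%). The median log2 fold change of all genes tested was -0.02, with 48.2% above 0.

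Tools and single libraries moved the number of calls. DESeq2 on the whole reads recovered from the table called 63 genes higher (0.445%) and 16 lower (0.113%), all 8 above among them. Of these, 60 of the 63 and 16 of the 16 did not overlap between genotypes. edgeR called 0 on the same reads, with 640 genes higher and 312 lower at an unadjusted p under 0.05, against 570 (4.03%) and 360 (2.54%) by limma and 732 and 431 by DESeq2. By limma 18 genes were called without control 1, 0 without control 2, 1 without control 3, 0 without tet-LIN28B library 1, 2 or 4, and 4 without tet-LIN28B library 3.

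**Figure D1:**
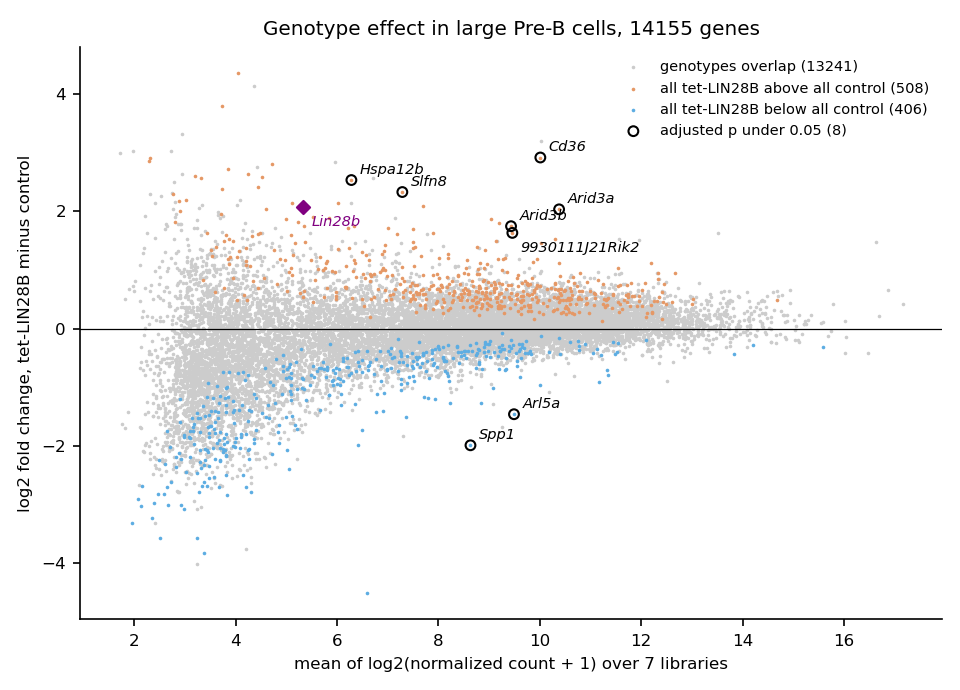
Log2 fold change of each of the 14155 genes tested in large Pre-B cells (y axis, tet-LIN28B minus control) against its mean log2(normalized count + 1) over 7 libraries (x axis). The 8 genes that passed the test are ringed, the 508 and 406 genes whose genotypes did not overlap are coloured, and Lin28b is the diamond. Low genes spread most, and the ringed genes lie outside the cloud at their level.

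Arid3a and Arid3b encode AT-rich interaction domain proteins. Arid3a binds the immunoglobulin heavy chain locus and is known from fetal B lymphopoiesis, and both are known let-7 targets. Arid3a (chromosome 10, 79927043 to 79955018) stood at 789, 705 and 376 in the controls and at 3396, 3527, 1366 and 2129 in tet-LIN28B libraries. All tet-LIN28B libraries were above all controls, and libraries 3 and 4 were the lower of the tet-LIN28B group. The log2 fold change was 2.03 ± 0.34 (SE, limma adjusted p = 0.0498). Arid3b (chromosome 9, 57790353 to 57836793) stood at 372, 338 and 327 in the controls, a narrow range, and at 1469, 1594, 803 and 957 in tet-LIN28B libraries, again with libraries 3 and 4 lowest. Its log2 fold change was 1.74 ± 0.26 (SE, limma adjusted p = 0.0276).

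Matches to the let-7 seed were looked for in the 3′ untranslated regions (UTRs) of both genes. The seed of a microRNA is bases 2 to 8 of its mature form, and a transcript with the complement of the seed can be a target. The mature let-7a, let-7c and let-7g sequences are shown as examples of the family, with the seed in capitals (RefSeq, GRCm38.p6).
mmu-let-7a-5p: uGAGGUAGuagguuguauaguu
mmu-let-7c-5p: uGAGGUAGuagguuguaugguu
mmu-let-7g-5p: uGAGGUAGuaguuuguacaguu
The seed was the same in 10 of the 11 mature sequences listed as let-7 or miR-98, and differed in let-7j. Its complement was looked for on the sense strand of the longest annotated 3′ UTR of each gene (GENCODE vM21). The matches of 3 genes that rose, and of 3 known let-7 targets that were not called, are shown with the matching bases in capitals, 8 where the match is followed by A and 7 otherwise.
Arid3a, first match (chromosome 10, 79953910 to 79953917, plus strand): caagtttctttCTACCTCAggtcttttgat
Arid3a, second match (chromosome 10, 79954737 to 79954743, plus strand): aaaactgttttCTACCTCtggtcaggcccc
Arid3b (chromosome 9, 57790362 to 57790368, minus strand): tcaataaagctCTACCTCttcaca
9930111J21Rik2 (chromosome 11, 49017077 to 49017084, minus strand): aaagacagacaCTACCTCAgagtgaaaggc
Igf2bp3 (chromosome 6, 49086787 to 49086794, minus strand): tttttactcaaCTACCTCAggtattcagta
Hmga1 (chromosome 17, 27563292 to 27563298, plus strand): ctgttcacaaaCTACCTCtggacggttgtg
Plagl2 (chromosome 2, 153229899 to 153229905, minus strand): gaaacacacttCTACCTCtttactgttaac
The UTRs of Slfn8, Spp1, Arl5a, Cd36 and Hspa12b held no such match of 7 or 8 bases. The 7-base match of Arid3b starts at base 2148 of a UTR of 2160 bases. A match is a description of the sequence, and no match says only that these letters are not in the UTR searched. An action of let-7 on these genes was not tested.

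Igf2bp3, an RNA-binding protein of fetal progenitors, stood at 107, 166 and 232 in the controls and at 310, 235, 497 and 512 in tet-LIN28B libraries. The ranges did not overlap, but control 3 and tet-LIN28B library 2 nearly met. The log2 fold change was 1.20 ± 0.34 (SE, limma adjusted p = 0.528). Hmga1, an AT-hook chromatin protein of proliferating and fetal cells, stood at 3904, 4451 and 5196 against 8284, 10372, 7965 and 8019 (log2 fold change 0.94 ± 0.20 SE, limma adjusted p = 0.212). Plagl2, a zinc finger transcription factor, stood at 262, 350 and 168 against 714, 863, 475 and 619 (1.39 ± 0.29 SE, limma adjusted p = 0.193). Neither gene overlapped between genotypes, and DESeq2 called both (adjusted p = 0.00285 for Hmga1 and 0.0019 for Plagl2).

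As a list, 67 of 84 known let-7 targets were tested. Of these, 51 were positive, and the median log2 fold change was 0.40 against -0.02 over all genes. By limma 2 rose and 0 fell, beside 0.0424% and 0.0141% of all genes. In 13 members every tet-LIN28B library was above every control and in 2 below, Pbx3 (log2 fold change -1.97) and Fign (-1.79). Among the 13 were Limd2, Eif4g2, Dicer1, Zcchc3, Smarcc1, Hmga1, Tgfbr1, Igf2bp3, Plagl2, Arid3b, Arid3a and Lin28b itself. The 13 are 19.4% of the members tested, against 3.59% of all genes. This list, like those below, was chosen with earlier results of these data known, so the contrast is no independent support. The median longest transcript was 4470 bases for the list and 2997 for all genes. Of all genes with transcripts of 4000 to 8000 bases, 5.71% were above all controls. Deviations of each member from its mean over the controls were taken on the log2 scale, here and for the lists below. Their median was -0.11, 0.05 and 0.21 in the controls and 0.47, 0.54, 0.33 and 0.24 in tet-LIN28B libraries. The list thus separated the genotypes, by little between control 3 and tet-LIN28B library 4. Without control 3 the median was 0.29 with 22 members higher, and without control 2 it was 0.39 with 18 higher, beside 724 genes (5.11%) and 845 genes (5.97%) of all tested. Lower in every tet-LIN28B library were 2 members without control 3, beside 956 of all genes (6.75%). Without control 2 there were 3, beside 791 of all genes (5.59%).

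Of 11 fetal RNA-binding and chromatin genes, 7 were tested. Beside Arid3a, Arid3b, Igf2bp3, Hmga1 and Lin28b, the near-copy of Hmga1, Hmga1b, was above all controls in every tet-LIN28B library (52.4, 29.4 and 26.2 against 53, 92.7, 67.3 and 97.4), with control 1 and tet-LIN28B library 1 almost level. Reads of Hmga1 and Hmga1b may be split between them by the counting. Igf2bp1 was the exception, at 13.5, 4.61 and 32 against 1.58, 0, 4.32 and 19.9. Lin28a, Igf2bp2 and Hmga2 were below the filter and not tested, and 1 listed name was not in the table.

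Of 19 genes of the microRNA pathway tested, 15 were positive with a median of 0.37, and 0 were called by limma. At an unadjusted limma p under 0.05, 5 were higher and 0 lower, beside 4.03% and 2.54% of all genes. DESeq2 called 2 higher and 0 lower, beside 0.445% and 0.113% of all genes. In 6 members (31.6%, against 3.59% of all genes) every tet-LIN28B library was above every control. Without control 3 the median was 0.23 with 6 above and 1 below all controls, beside 5.11% and 6.75% of all genes. Without control 2 it was 0.36 with 6 above and 0 below, beside 5.97% and 5.59% of all genes. Those 6 included the processing enzyme Dicer1 (550, 654 and 519 against 925, 1039, 928 and 900), its partner Tarbp2 (1108, 993 and 819 against 1412, 1558, 1525 and 1701) and Trim25 (764, 810 and 730 against 1500, 1519, 1083 and 1070), an E3 ligase that acts with LIN28 on let-7 precursors. All 3 sets are apart, and DESeq2 called Dicer1 (adjusted p = 0.0356) and Tarbp2 (adjusted p = 0.0469). Ago2, Tut4 and Tnrc6a were the other members. The list has long transcripts, with a median longest transcript of 6054 bases against 2997 for all genes. Above all controls were 5.71% of all genes with transcripts of 4000 to 8000 bases and 7.7% over 8000 bases.

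Across all genes, an 8-base let-7 match (the complement of the seed followed by A) was present in 435 of 11744 UTRs (3.7%). Of these 435 genes, 42 (9.66%) were above all controls in every tet-LIN28B library and 10 (2.30%) below, against 457 (3.89%) and 313 (2.67%) of all genes with a UTR. Their median log2 fold change was 0.11 against 0.01, and 268 were positive. The 42 include the replication helicase Dna2, the TGF-beta receptor Tgfbr1, the anti-apoptotic Bcl2l1 and the endoplasmic reticulum mannosidase Edem3 beside Arid3a and Igf2bp3. Long UTRs hold more matches by their length alone, so the genes were split by UTR length into 3 parts of equal size. In the shortest part 8.82% with and 2.45% without a match were above all controls, in the middle part 9.92% and 3.56%, and in the longest 9.64% and 5.09%. Without control 2 the share with a match was 13.6% against 6.02% without, and without control 3 it was 13.1% against 5.05%.

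The same count was made for 12 other microRNA families of lymphocytes. The share above all controls was 8.25% for miR-29, 6.67% for miR-221 and 6.51% for miR-155, and it was lowest for miR-17/20 (2.76%). For UTRs with 1 or more matches, let-7 had the highest share of the 13 and the highest median, with miR-15/16 next by median at 0.07. For UTRs with 2 or more matches this order did not hold, with 1 of 21 genes (4.76%) for let-7 and 3 of 17 (17.65%) for miR-29. A gene can hold matches of several families, so the shares are not independent, and families were not tested against each other.

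**Figure D2:**
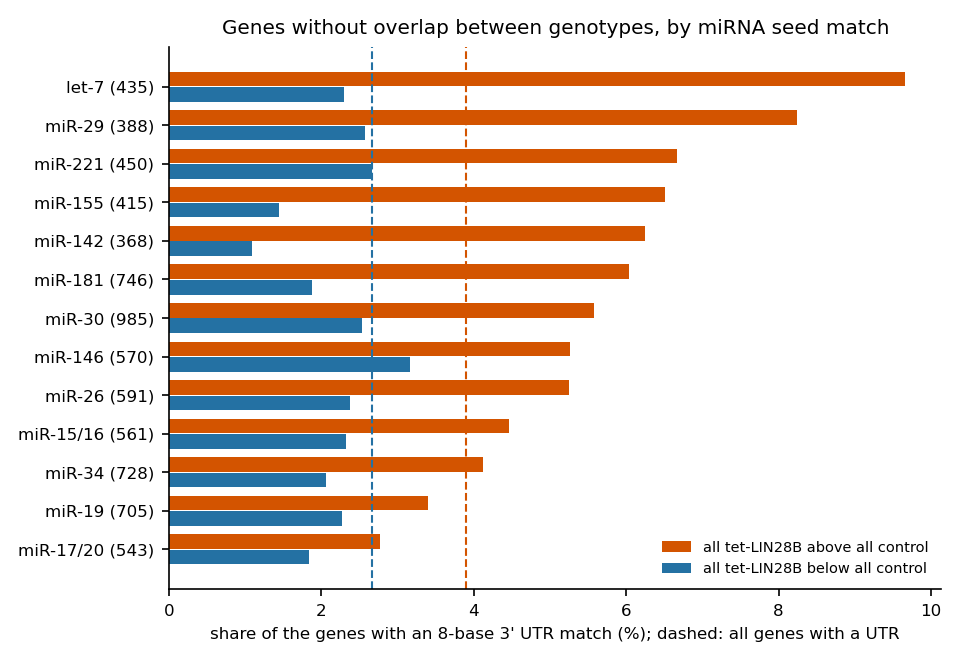
Share of the genes with an 8-base 3′ UTR match to each of 13 microRNA seeds (x axis, %) whose tet-LIN28B libraries were all above (upper bar) or all below (lower bar) the controls. Numbers of genes are in brackets and dashed lines mark the 3.89% and 2.67% of all genes with a UTR. The let-7 bar is the longest at 9.66%.

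Slfn8 was called with the smallest p. Schlafen genes are induced by type I interferon and act on cell growth and RNA. Slfn8 (chromosome 11, 83002158 to 83020810) stood at 45.3, 57.6 and 87.7 in the controls and at 426, 288, 256 and 299 in tet-LIN28B libraries. The lowest tet-LIN28B library was far above the highest control. Its log2 fold change was 2.33 ± 0.32 (SE, limma adjusted p = 0.0276). Of 7 Schlafen genes tested, 4 were above all controls in every tet-LIN28B library, the called Slfn8 among them, beside 3.59% of all genes. The count was 4 also without control 2 or without control 3, beside 5.97% and 5.11% of all genes. Slfn2, which keeps lymphocytes quiescent, stood at 276, 477 and 117 against 1171, 969, 699 and 856 (1.86 ± 0.37 SE, limma adjusted p = 0.16). Slfn10-ps stood at 171, 80.6 and 139 against 553, 435, 306 and 305 (1.63 ± 0.33 SE, limma adjusted p = 0.16), and DESeq2 called it and Slfn2. Slfn9 was the remaining one, with a log2 fold change of 0.67. These genes lie in one cluster of similar sequence, so reads may be shared among them.

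Interferon response genes had mostly positive log2 fold changes, with few called. Of 78 listed, 72 were tested, 63 were positive, and the median log2 fold change was 0.57. By limma 1 rose, Slfn8, and 0 fell, beside 0.0424% and 0.0141% of all genes. In 21 of them (29.2%, against 3.59% of all genes) every tet-LIN28B library was above every control, and in 0 of them below. The median deviation of the members was 0.07, 0.13 and -0.21 in the controls and 0.69, 0.82, 0.38 and 0.60 in tet-LIN28B libraries, so the genotypes were apart, with tet-LIN28B library 3 nearest to the controls. DESeq2 called 8 members higher and 0 lower, beside 0.445% and 0.113% of all genes. Without control 3 the median was 0.39 with 22 members above and 1 below all controls, beside 5.11% and 6.75% of all genes. Without control 2 it was 0.71 with 27 above and 0 below, beside 5.97% and 5.59% of all genes. The summed level of all 78 overlapped between genotypes (60220 to 96154 and 82501 to 96710).

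The PYHIN family gene Ifi206 stood at 467, 270 and 238 in the controls and at 1228, 979, 634 and 780 in tet-LIN28B libraries (log2 fold change 1.5 ± 0.29 SE, limma adjusted p = 0.16). The guanylate-binding protein Gbp7 stood at 120, 124 and 80 against 219, 376, 280 and 269 (1.39 ± 0.30 SE, limma adjusted p = 0.2). The GTPase gene Irgm2 was at 91.4, 69.1 and 51.2 against 172, 231, 143 and 214, and the nucleotide kinase gene Cmpk2 at 504, 348 and 342 against 1220, 1063, 607 and 845. All 4 were called by DESeq2, and all 4 were apart between genotypes. The transcription factors of the response were closer: Irf7 stood at 73, 76 and 64 against 172, 136, 76.8 and 171, where tet-LIN28B library 3 was just above the highest control. Classical members at low level were apart as well, Mx2 at 0, 24.8 and 0 against 41.1, 48.4, 31.1 and 41.2, and Ifit1 at 4.96, 29.4 and 32.6 against 62.4, 53, 36.3 and 71.1. The 9 members with a negative log2 fold change included Ifitm3 (-1.39) and Rsad2 (-0.43), neither of them called.

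Interferon response promoters often carry the core of the interferon-stimulated response element, searched here as 2 copies of GAAA with any 2 bases between them, on either strand. It was found between 250 bases before and 50 after the start in 30 of 56 interferon response genes with a promoter window (53.6%) and in 385 of 9788 tested genes in all (3.93%). Within the list, the median log2 fold change was 0.74 with and 0.49 without the motif, and 9 of 30 and 8 of 26 members were above all controls in every tet-LIN28B library. The windows of Slfn8, Ifi206 and Gbp7 are shown on the strand of the gene with the match in capitals, as the members with the smallest p (RefSeq, GRCm38.p6).
Slfn8, chr11:83020761-83021060, minus strand: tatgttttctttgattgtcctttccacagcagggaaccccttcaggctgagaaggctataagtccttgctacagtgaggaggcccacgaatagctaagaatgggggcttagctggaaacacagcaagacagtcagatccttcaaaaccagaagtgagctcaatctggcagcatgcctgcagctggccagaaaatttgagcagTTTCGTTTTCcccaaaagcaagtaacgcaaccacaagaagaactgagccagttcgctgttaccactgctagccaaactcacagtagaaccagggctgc
Ifi206, chr1:173491269-173491568, minus strand: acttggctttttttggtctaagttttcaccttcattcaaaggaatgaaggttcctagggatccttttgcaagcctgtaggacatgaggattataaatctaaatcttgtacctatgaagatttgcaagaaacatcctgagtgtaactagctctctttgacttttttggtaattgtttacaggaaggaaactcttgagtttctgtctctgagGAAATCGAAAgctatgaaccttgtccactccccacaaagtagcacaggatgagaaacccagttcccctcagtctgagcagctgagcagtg
Gbp7, chr3:142530086-142530385, plus strand: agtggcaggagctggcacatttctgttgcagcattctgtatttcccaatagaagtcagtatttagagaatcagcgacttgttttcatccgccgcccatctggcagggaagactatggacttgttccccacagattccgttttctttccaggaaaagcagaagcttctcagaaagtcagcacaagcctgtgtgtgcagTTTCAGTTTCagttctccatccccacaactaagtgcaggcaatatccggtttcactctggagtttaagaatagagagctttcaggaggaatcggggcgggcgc
One of the windows of Spp1, which fell, held a match too.

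Cd36 had the largest log2 fold change of the 8. It takes up long-chain fatty acids and oxidized lipids, and marks marginal zone B cells among mature B cells. Cd36 (chromosome 5, 17781690 to 17888801) stood at 877, 294 and 131 in the controls and at 2992, 2674, 2018 and 2225 in tet-LIN28B libraries. Control 1 was the highest of the controls and still far below the lowest tet-LIN28B library. The log2 fold change was 2.91 ± 0.45 (SE, limma adjusted p = 0.0276), 2.27 without control 3 (limma adjusted p = 0.158) and 3.63 without control 1 (limma adjusted p = 0.00031). Over 20 alternative settings its adjusted p ran from 7.81e-05 to 0.236. Of 23 fatty acid handling genes tested, 10 were positive with a median of -0.03, and Cd36 was the 1 that rose. The carrier Fabp5 stood at 232, 327 and 373 against 221, 205, 207 and 178, and the mitochondrial transferase Cpt2 at 1035, 878 and 743 against 706, 739, 579 and 610, both lower in all tet-LIN28B libraries and not called.

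Hspa12b, a distant HSP70 relative (chromosome 2, 131127280 to 131146321), stood at 36.1, 33.4 and 17.3 against 200, 219, 134 and 124 (log2 fold change 2.53 ± 0.40 SE, limma adjusted p = 0.0298). Its genotypes were well apart. Of 20 heat shock genes tested, 7 were positive with a median of -0.14, and Hspa12b was the 1 that rose. The inducible Hspa1b ranged widely within both genotypes, at 312, 2472 and 2210 against 181, 802, 758 and 173. 9930111J21Rik2 (chromosome 11, 49015874 to 49051242) stood at 527, 310 and 305 against 1381, 976, 1113 and 1127 (1.63 ± 0.25 SE, limma adjusted p = 0.0276). Its neighbour of similar sequence, 9930111J21Rik1, was at 600, 401 and 98 against 1125, 1212, 703 and 1031, and reads may be shared between them.

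Spp1 (chromosome 5, 104435118 to 104441050) stood at 1051, 949 and 662 in the controls and at 246, 282, 232 and 143 in tet-LIN28B libraries. The highest tet-LIN28B library was far below the lowest control. The log2 fold change was -1.99 ± 0.28 (SE, limma adjusted p = 0.0276). Macrophages also make osteopontin. Lyz2 was at 50.3, 4911 and 763 in controls 1 to 3 and Spp1 was highest in control 1, and the part of myeloid cells in the difference was not tested. In these bulk libraries fewer cells of a type and less RNA per cell cannot be told apart. Of 14 osteopontin receptor and integrin genes tested, Spp1 included, 8 were positive with a median of 0.19. The integrin Itga4 stood at 1861, 1670 and 928 against 2336, 2046, 2567 and 1962, above all controls and not called.

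Arl5a (chromosome 2, 52397951 to 52424901) acts at the trans-Golgi network in vesicle traffic. It stood at 1138, 1201 and 1534 in the controls and at 461, 443, 540 and 425 in tet-LIN28B libraries, a tight group well under the controls. The log2 fold change was -1.46 ± 0.22 (SE, limma adjusted p = 0.0276). Of 22 ARF and ARF-like GTPases tested, 6 were positive with a median of -0.18, and Arl5a was the 1 that fell by limma. Its closest relative Arl5b stood at 220, 146 and 190 against 225, 193, 403 and 244, the opposite sign and overlapping.

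**Figure D3:**
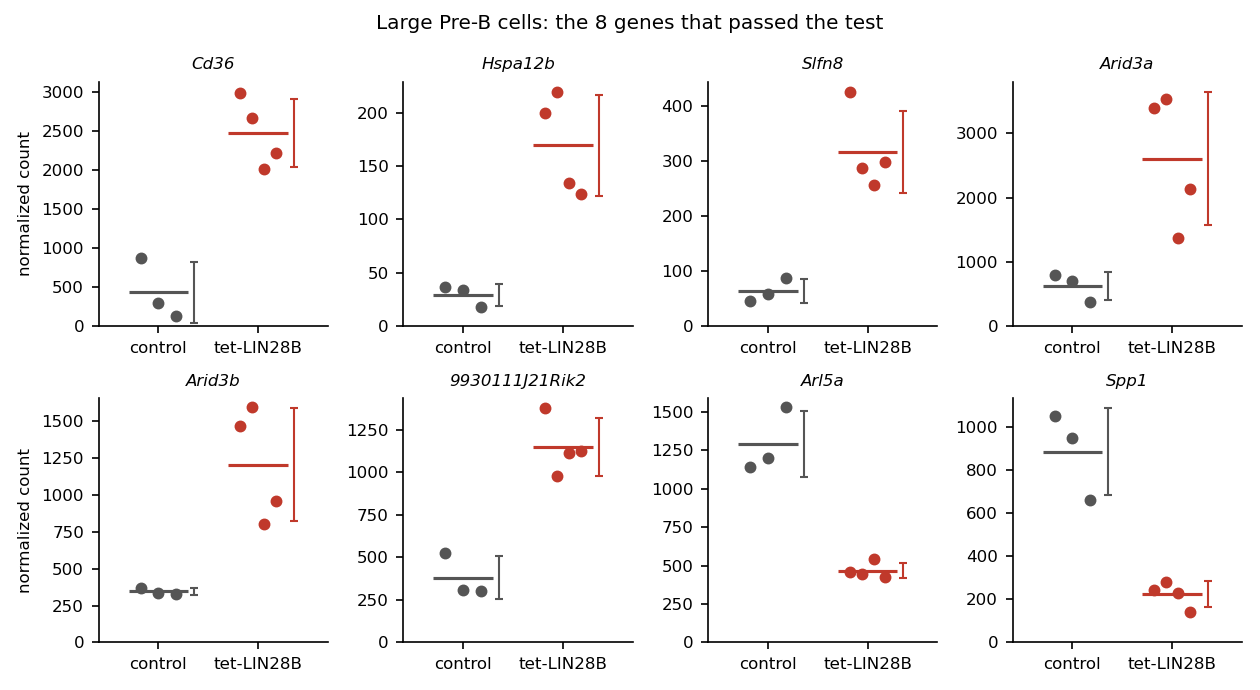
Normalized counts (y axis, from 0) of the 8 genes that passed the test in each of 3 control and 4 tet-LIN28B large Pre-B libraries. Points are libraries, horizontal lines the group means and bars at their side the SD. In each panel the genotypes are apart, for example Spp1 at 662 or more in controls and 282 or less in tet-LIN28B libraries.

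Genes of later B cells were higher in part, though none was called by limma. Ms4a1, which encodes CD20, stood at 174, 107 and 39.1 in the controls and at 260, 250, 721 and 467 in tet-LIN28B libraries (log2 fold change 2.08 ± 0.47 SE, limma adjusted p = 0.235). Lymphotoxin beta (Ltb) stood at 25.5, 49 and 49.3 against 114, 181, 113 and 141 (1.74 ± 0.38 SE, limma adjusted p = 0.212). The class II peptide loader H2-DMb2 was at 85.7, 84.7 and 35.9 against 177, 195, 233 and 245, and the activation marker Cd83 at 7.08, 9.21 and 2.56 against 29.2, 16.7, 63.9 and 83.2. All 4 were apart between genotypes and called by DESeq2. Of 41 late Pre-B and light chain stage genes tested, 31 were positive with a median of 0.37, 9 were above all controls and 2 below, Il2ra and Cd72, beside 3.59% and 2.87% of all genes. Il2ra, whose product CD25 marks Pre-B cells, stood at 390, 306 and 323 against 202, 230, 220 and 294. The median deviation of the late list was 0.35, 0.19 and -0.51 in the controls and 0.36 to 0.42 in tet-LIN28B libraries, so control 1 was almost level with them. Without control 3 the median was 0.11, with 10 members above and 4 below all controls, beside 5.11% and 6.75% of all genes. Without control 2 it was 0.47 with 9 above and 2 below, beside 5.97% and 5.59% of all genes. Of 14 class II genes, 8 of them in the late list, 12 were positive with a median of 0.43. Their median deviation was 0.38, 0.18 and -0.54 in the controls and 0.39, 0.55, 0.04 and 0.60 in tet-LIN28B libraries, so the genotypes overlapped. The median was 0.20 with 9 positive without control 3, and 0.51 with 11 positive without control 2. Markers of mature B cells (10 tested, 4 above all controls, beside 3.59% of all genes) are all members of the late list. A part played by such cells was not tested.

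Of the genes that define the stage, Igll1 and Vpreb1 stood at 6297, 5338 and 7722 against 4003, 5411, 5100 and 4068, and at 1808, 1826 and 2161 against 1194, 1851, 1687 and 1141, and both overlapped between genotypes. Of 27 pre-B cell receptor signalling genes tested, 19 were positive with a median of 0.36. Above all controls was 1 (3.70%, near the 3.59% of all genes). The median deviation was 0.33, 0.05 and -0.40 in the controls and 0.47, 0.48, 0.14 and 0.29 in tet-LIN28B libraries, so the genotypes overlapped. Without control 3 the median was 0.24, and without control 2 it was 0.45. Of 19 IL-7 receptor and STAT5 genes, 12 were positive with a median of 0.18. Above or below all controls were 0 of them, beside 3.59% and 2.87% of all genes. Il7r itself was at 8019, 6263 and 2809 against 4982, 4021, 5417 and 5586. Rag1, the recombinase of both antigen receptor chains, stood at 225, 293 and 193 against 518, 466, 395 and 370, apart but not called (0.89 ± 0.25 SE, limma adjusted p = 0.528), while Rag2 overlapped. Among 52 transcription factors of the lineage, 35 were positive, 6 were above all controls and 1 below, beside 3.59% and 2.87% of all genes. Without control 3 these were 10 and 1, beside 5.11% and 6.75% of all genes, and without control 2 they were 8 and 1, beside 5.97% and 5.59%. The list has a median longest transcript of 4499 bases, and 5.71% of genes with 4000 to 8000 bases were above all controls. Rel, Bcl11a and Id3 were the 3 with the smallest p, with log2 fold changes of 0.94, 0.81 and 0.65. Cd5 was at 29.7, 15 and 10.9 against 54.5, 57, 10.4 and 66.8, with tet-LIN28B library 3 under the controls.

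Of 60 DNA replication genes 49 were positive, with a median of 0.23 (0.05 without control 3 and 0.22 without control 2), and 3 were above all controls (5.0%, near the 3.59% of all genes). Dna2 was the largest, at 1306, 1034 and 969 against 2091, 2112, 1703 and 1781, and DESeq2 called it. Of 76 mitosis genes 49 were positive with a median of 0.09. With all libraries 0 were above all controls and 1 below, beside 3.59% and 2.87% of all genes. Without control 3 the median was -0.19 with 0 above and 15 below, beside 5.11% and 6.75% of all genes. Without control 2 it was 0.17 with 0 above and 1 below, beside 5.97% and 5.59%. Mki67 stood at 25794, 22979 and 14157 against 26104, 24609, 22780 and 22720, and overlapped. MYC targets had a median of 0.00 over 89 genes, and Myc stood at 1240, 1155 and 1510 against 1344, 1881, 1396 and 1294.

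Ribosomal protein mRNAs, which encode the structural proteins of the ribosome and are known ligands of LIN28B, had negative log2 fold changes in nearly all members and were apart in none. Of 82 cytosolic ribosomal protein genes tested 2 were positive, with a median of -0.31, and 0 were called by limma or DESeq2. Above or below all controls were 0, beside 3.59% and 2.87% of all genes. At an unadjusted limma p under 0.05, 0 were higher or lower, beside 4.03% and 2.54% of all genes. The median deviation was -0.48, 0.16 and 0.37 in the controls and -0.68, -0.21, 0.13 and -0.55 in tet-LIN28B libraries, so the genotypes overlapped and control 1 lay among the tet-LIN28B libraries. Without control 3 the median was -0.14 with 10 positive and 1 member below all controls, beside 6.75% of all genes. Without control 2 it was -0.23 with 7 positive. Rpl28, with the smallest p, stood at 257, 476 and 793 against 208, 312, 380 and 237. Short transcripts in general were lower. The median log2 fold change was -0.23 for 1000 genes with transcripts under 1000 bases, -0.11 from 1000 to 2000, 0.00 from 2000 to 4000, 0.13 from 4000 to 8000 and 0.08 over 8000 bases. The ribosomal protein genes have a median longest transcript of 896 bases. With the length trend taken out of each library, a choice made after the data were seen, the median of the 82 was -0.11 with 21 positive, and all genes then had a median of 0.10. Genes of oxidative phosphorylation (913 bases) went from -0.20 to 0.00, so both lists stayed below the 0.10 of all genes. The part of transcript length in these differences was not tested. A list of LIN28B-bound transcripts came from an RNA immunoprecipitation in cultured B cell precursors. Of its 230 tested members, 106 were positive with a median of -0.04, and 7 (3.04%) were above all controls, near the 3.59% of all genes.

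**Figure D4:**
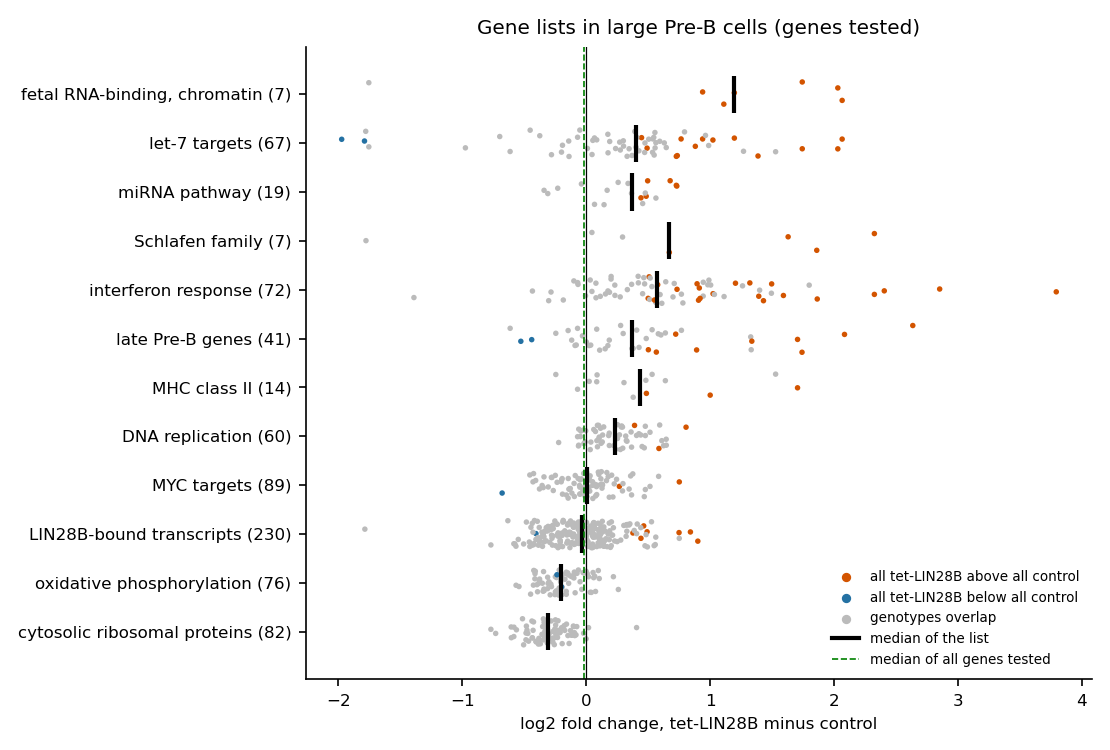
Log2 fold change (x axis, tet-LIN28B minus control) of each tested member of 12 gene lists in large Pre-B cells, with the number tested in brackets. Black bars are list medians, the dashed line is the median of all genes, and colours mark members whose genotypes did not overlap. Fetal, let-7 and interferon lists lie to the right (medians 1.20, 0.40 and 0.57) and ribosomal proteins to the left (-0.31) with no coloured member.

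Genes outside these lists with large differences included Pacsin1, a regulator of endocytosis, at 15.6, 0.576 and 0 in the controls against 48.2, 66.8, 71.7 and 54.7 (log2 fold change 4.35, limma adjusted p = 0.16), and the retinoic acid receptor Rara at 1.42, 17.3 and 11.5 against 51.4, 104, 25 and 40.5. Of genes lower in tet-LIN28B cells, the adaptor Lcp2 (SLP-76) stood at 143, 197 and 230 against 30.8, 77.7, 76 and 24.9 (-1.99 ± 0.45 SE, limma adjusted p = 0.225). Lyz2, at 50.3, 4911 and 763 against 33.2, 29.4, 33.7 and 10.7, and Fn1, at 14.9, 176 and 35.9 against 4.74, 0, 2.59 and 4.98, were highest in control 2 with its myeloid markers, whose part in these 2 differences was not tested. DESeq2 called further genes that were named after their values were seen. The noncoding RNA Tug1 stood at 1783, 2305 and 1860 against 4063, 3940, 4345 and 3847, and the actin-binding Lsp1 at 3740, 3251 and 2220 against 6780, 7253, 5588 and 6432. Lower were Cpne2 at 492, 452 and 551 against 205, 227, 189 and 203, the semaphorin co-receptor Nrp1 at 149, 212 and 176 against 65.6, 53, 41.4 and 54, and Bhlha15 (MIST1), a factor of secretory cells, at 312, 378 and 220 against 137, 76.6, 88.1 and 125. All 5 were apart between genotypes, and limma did not call them (adjusted p from 0.137 to 0.198). The summed plasma cell markers were highest in control 2 too, and a part of such cells in the Bhlha15 difference was not tested.

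To ask what was particular to large Pre-B cells, the genotype effect was compared with that in large Pro-B cells of 4 control and 5 tet-LIN28B libraries and in small Pre-B cells of 3 and 3. The same 7 mice were sampled at the large Pro-B stage, whereas small Pre-B cells were taken from different animals. Against large Pro-B cells limma called 0 of 12653 genes (235 higher and 326 lower at an unadjusted p under 0.05), and 0 as within-mouse differences (181 and 274). Arl5a had a log2 fold change of 0.11 ± 0.32 (SE) in large Pro-B cells, and the difference of -1.63 ± 0.31 (SE) was not called (limma adjusted p = 0.211). Slfn8 had 0.61 ± 0.49 (SE) there, and a difference of 1.73 ± 0.50 (SE, limma adjusted p = 0.753). Arid3a had 2.09 ± 0.38 and Cd36 2.16 ± 0.41 (SE) in large Pro-B cells, against 2.03 and 2.91 in large Pre-B cells. In large Pro-B cells limma called 0 genes (248 higher, 1.80%, and 146 lower, 1.06%, at an unadjusted p under 0.05).

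Against small Pre-B cells limma called 0 genes higher and 2 lower in large Pre-B cells of 12262 (0.0163%), Myc and Lin28b. Myc was at 37.2, 76.8 and 39.5 in small Pre-B controls and at 315, 441 and 469 with LIN28B, so it was apart there, and it overlapped in large Pre-B cells, at a level set on another scale. The difference in log2 fold change was -2.91 ± 0.39 (SE, limma adjusted p = 0.00286). Lin28b was at 0 in all 3 small Pre-B controls, where its fitted fold change depends on the pseudocount (difference -4.97 ± 0.82 SE, limma adjusted p = 0.0289). Large Pre-B controls were all above 0 for it. Without control 2, control 3 or tet-LIN28B library 1, 2 or 4 the count was 1, with Myc called and Lin28b not. Of the 8 called genes, none was called in this difference. Arid3a had 0.79 ± 0.11 (SE) and Slfn8 0.65 ± 0.13 (SE) in small Pre-B cells against 2.03 and 2.33 in large Pre-B cells, and Cd36 and Arl5a had 3.65 ± 0.23 and -1.79 ± 0.10 (SE). As lists, let-7 targets had medians of 0.31 in large Pro-B, 0.40 in large Pre-B and 0.19 in small Pre-B cells, interferon response genes 0.31, 0.57 and 0.50, and ribosomal protein genes -0.06, -0.31 and 0.34, differences that were not tested.

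**Figure D5:**
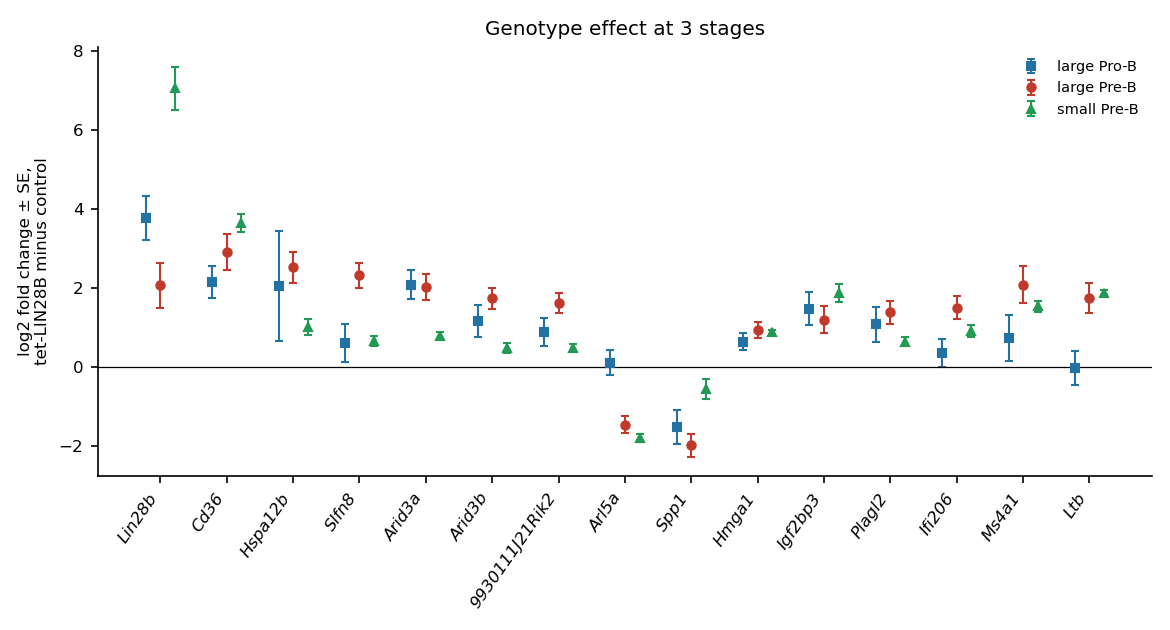
Log2 fold change (y axis, tet-LIN28B minus control, ± SE of the limma fit) of Lin28b, the 8 called genes and 6 further genes at the large Pro-B stage and both Pre-B stages. Arl5a is near 0 in large Pro-B cells (0.11) and low in both Pre-B stages, and Slfn8 is highest in large Pre-B cells (2.33).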

How the data were processed

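RNA was amplified by SMART-Seq v4, tagged by Nextera XT and sequenced on NextSeq or NovaSeq instruments, without a map of libraries to instruments. The submitters' processing notes name STAR 2.7.1, RSEM 1.28, DESeq2 and mm10. For the annotation the sources used here name none. The authors deposited 1 table per stage of normalized read counts (a signal: reads divided by a size factor), and every large Pre-B value came out as a whole number of reads within 0.1. Tables of the authors' own comparisons (log2 fold changes, standard errors, Wald statistics and p-values) were not used.

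Genes with at least 10 in 3 libraries were tested with limma 3.58.1 (R 4.3.3) on log2(value + 1), tet-LIN28B against control, with Benjamini-Hochberg adjustment over all genes. Differences between stages were interaction terms in one model, with the mouse as a random block. edgeR 4.0.16 and DESeq2 1.42.0 were run on the recovered reads. The analysis was tested on simulated data. Genes named in the text were Lin28b, every gene called, the genes with the largest differences among those that did not overlap, and members of gene lists. Gene lists and alternatives were chosen with earlier results of these data known, so no list is independent support for a pattern. Libraries came from separate mice. Some genes and markers are not reported here. Reads carry no molecular identifiers, so read depth covers counting error alone. Alternatives were other pseudocounts, filters, scalings and tools, and leaving out each library.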

Additional observations from a re-analysis of the deposited data

Results flagged for a closer look

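Among 163 genes examined by library, 8 had 1 tet-LIN28B library of 4 far from the other three, where chance alone marks about 1 in 20 groups. Lin28b was 175 in tet-LIN28B library 3, and 41.9 to 63.3 in the others. In the same library Cnr2 was 45.8, Rpl22 was 299 and Igkv2-137 was 53.5. In tet-LIN28B library 4 Rpia was 131, Bcl11b was 26.3 and Cxcl12 was 20.6. Hmga1 was 10372 in tet-LIN28B library 2.

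The genotype effect differed between large and small Pre-B cells for Myc, by -2.91 on the log2 scale, and for Lin28b, by -4.97, by the interaction term in limma. Lin28b was at 0 in all small Pre-B controls, so its difference depends on the pseudocount.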

How the results depend on the processing

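Of 8 genes called between genotypes by limma, the count was 15 with no filter other than above 0 in 1 library, 1 with the same total in each library, 4 with quantile normalization, 366 with library weights, 79 with DESeq2 and 0 with edgeR, and 0 to 18 when 1 library was left out. It was 7 to 9 under the other settings. With the replicate number as a block it was 2. The numbers do not pair the samples (correlations of deviations 0.16, 0.144 and -0.059). All 8 genes kept their sign in all 20 alternatives. None of the 8 overlapped between genotypes, so leaving out 1 library could not change it. The causes were not tested.

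The genes whose effect differed from small Pre-B cells numbered 2, and 1 with a minimum of 50, 1 with the replicate block, and 1 to 2 when 1 library was left out, with Myc called each time. Against large Pro-B cells the count was 0 in each alternative. No called value changed sign, but 17 of 43 list medians, none of them tested, did so in at least 1 alternative, such as mitosis genes from 0.09 to -0.19 without control 3. With the same total in each library the median of all genes was -0.12. Depth of 19864000 to 30437872 reads limits genes under the filter.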
